A study of Mus musculus with 6 samples.

Results

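The proteasome is the barrel-shaped protease that degrades ubiquitin-tagged proteins. Here its transcripts were the 50 of 25124 gene rows whose symbol begins with Psm, a letter from a to g and a number. By role, 33 are constitutive subunits and activators, 7 assembly factors, 1 an inhibitor and 2 tissue-specific core subunits. The other 5, Psmb8, Psmb9, Psmb10, Psme1 and Psme2, make up the interferon-inducible immunoproteasome and its activator PA28. The symbol pattern also takes 2 rows that are no subunit: Psmc3ip, a meiotic recombination factor, and Psme2b, a retrocopy of Psme2.

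The macrophages came from colon lamina propria by cell sorting (C57BL/6 mice aged 8 weeks), in 3 wild type samples and 3 samples with macrophage-specific overexpression of E4BP4, a repressor-type basic leucine zipper factor encoded by Nfil3. Mice of both genotypes had colitis, induced with dextran sulfate sodium (an epithelium-damaging polymer) in their water at 2.0% for 7 days. They then recovered for 7 days without it, and tissue was taken on day 14. No untreated group is among these samples, and the labels name neither the promoter of the transgene nor whether a sample is 1 mouse or a pool. P-values therefore measure the spread between these samples, which may be technical.

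The core particle stacks rings of alpha and beta subunits, and the catalytic sites sit on beta subunits encoded by Psmb5, Psmb6 and Psmb7. Interferon-gamma induces Psmb8, Psmb9 and Psmb10, whose products replace those subunits in newly assembled particles and alter which peptides are cut for display on MHC class I. The regulatory particle unfolds ubiquitin-tagged substrates, whereas the PA28 ring, made of the Psme1 and Psme2 products, opens the core for peptides without ubiquitin.

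The inducible genes lie in 3 places. On mouse chromosome 17 (build mm10, which has the coordinates of GRCm38), Psmb9 (34182099 to 34187330, minus strand) and the peptide transporter gene Tap1 (34187556 to 34197225, plus strand) point away from each other across 225 bases. Psmb8 (34198195 to 34201454, plus strand) starts 969 bases past the end of Tap1. Psme1 (55578494 to 55581527, plus strand) and Psme2 (55587440 to 55591021, minus strand) lie 5912 bases apart on chromosome 14, pointing toward each other. Psmb10 (105935728 to 105938392, minus strand) is on chromosome 8.

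The upstream sequences of the inducible genes are shown as a description. Whether their letters bear on the changes below was not tested. They come from RefSeq (GRCm38.p6), read 5′ to 3′ in the direction of the named Psm gene, with capitals for letters of the interferon-stimulated type (2 copies of GAAA with 2 bases between them) or of the gamma-activated type TTCNNNGAA, on either strand. The interval between Psmb9 and Tap1 is chr17:34187331-34187555, read on the minus strand. The 100 bases before Psmb8 are chr17:34198095-34198194 (plus) and those before Psme1 are chr14:55578394-55578493 (plus). The 30 bases that begin the Psme1 transcript, chr14:55578494-55578523, are given because they hold a match. For comparison stand the 100 bases before Psmb10, chr8:105938393-105938492 (minus), and before Psme2, chr14:55591022-55591121 (minus).
Psmb9 to Tap1 interval: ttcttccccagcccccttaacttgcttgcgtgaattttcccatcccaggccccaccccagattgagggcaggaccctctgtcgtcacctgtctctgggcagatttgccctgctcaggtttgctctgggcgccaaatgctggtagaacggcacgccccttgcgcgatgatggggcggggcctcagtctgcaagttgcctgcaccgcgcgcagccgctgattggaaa
Psmb8 upstream: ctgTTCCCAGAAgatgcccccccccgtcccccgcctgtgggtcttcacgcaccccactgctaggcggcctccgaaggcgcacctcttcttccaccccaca
Psme1 upstream: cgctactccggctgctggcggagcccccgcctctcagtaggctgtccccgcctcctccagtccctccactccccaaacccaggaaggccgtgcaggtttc
Psme1 first transcribed bases: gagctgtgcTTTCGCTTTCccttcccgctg
Psmb10 upstream: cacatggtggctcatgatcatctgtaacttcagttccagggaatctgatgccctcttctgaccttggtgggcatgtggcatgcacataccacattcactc
Psme2 upstream: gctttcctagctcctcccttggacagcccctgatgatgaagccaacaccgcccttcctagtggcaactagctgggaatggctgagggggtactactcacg

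Of the 50 rows, 42 have a promoter window in the RefSeq table, running from 250 bases before to 50 bases after the start. These 42 genes have 45 windows. A gene was counted if any of its windows matched, whereas the shares of all are per window, so the units differ. The Psmb8 match begins 97 bases upstream of the start and the Psme1 match at transcript base 10. The printed stretches of Psmb9, which rose, and of Psmb10 and Psme2, which were not called, hold no match to the interferon-stimulated or gamma-activated type. Matches to the antioxidant type and CCAAT are not put in capitals. TTCNNNGAA occurred in the windows of 3 of the 42 genes (Psmb8, Psmd2 and Psmg1) and in 8.30% of all 32851 windows. The interferon-stimulated type occurred in 5 of 42 (Psmb3, Psmd4, Psmd9, Psme1 and Psmg4) and in 3.44% of all. An E4BP4-type motif, TTANGTAA, was in none of the 42 and in 2.32% of all windows. The NF-kappaB type (GGGA, any 1 base, then TTTCC) was in none of the 42 and in 0.411% of all. The antioxidant-type TGANNNNGC was in 24 of 42, against 41.3% of all, and CCAAT in 15 of 42, against 37.4%. All motifs were searched on both strands, with no overlap between the printed matches, and each match is only a description of these letters.

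In the TPM values (abundance scaled for transcript length and depth), 48 of the 50 rows passed the filter on low values (group mean of 1 TPM or more in either genotype). Those 48 were tested with limma within a fit of all 12633 genes above that filter. At an adjusted p below 0.05, 3 were higher in transgenic samples (Psmb8, Psmb9 and Psme1), 6.25% of the 48, where 8.71% of all tested genes were called higher. A further 6 were lower (Psmb5, Psmb6, Psma6, Psmc3, Psmd3 and Psme3), 12.5% of the 48, where 13.2% of all tested genes were called lower. In either direction 21.9% of all tested genes were called. Without transgenic replicate 1 only 3 were lower. Neither share exceeded its background, so the results below are about single genes and roles.

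The headers of the deposited table state 17.25 to 18.90 M reads per library (M, 1e6), of which 13.97 to 15.06 M were recovered in genes. Nfil3 itself read 117, 120 and 119 TPM in wild type and 133, 134 and 141 TPM in transgenic libraries (log2 change 0.19, SE 0.029, limma adjusted p = 0.0026). All 12 macrophage markers were detected, with sums of 18292 to 18481 TPM in wild type and 18051 to 18138 TPM in transgenic libraries (5 members called higher and 4 lower). These 5 and 4 macrophage calls go in opposite directions within close sums. Of all tested genes, 8.71% were called higher and 13.2% lower. In proportion, the marker sums of other cells differed more. Neutrophil markers summed to 1182 to 1218 against 494 to 552 TPM (8 of 9 tested members lower), and epithelial markers to 1031 to 1040 against 570 to 579 TPM (7 of 10 lower). Conventional dendritic markers summed to 86.7 to 92.8 against 116 to 126 TPM (5 of 10 higher, 1 lower), T, NK and innate lymphoid markers to 145 to 153 against 169 to 180 TPM (7 of 15 higher), and plasmacytoid dendritic markers to 203 to 220 against 241 to 258 TPM (2 of 5 higher). Fibroblast and smooth muscle markers (4 of 8 lower) summed to 161 to 163 against 117 to 121 TPM. Endothelial markers (4 of 5 lower) summed to 48.7 to 51.5 against 31.8 to 35.2 TPM. B and plasma cell markers (1 of 7 higher) summed to 228 to 242 against 267 to 285 TPM, and erythroid markers (2 of 2 higher) to 13.3 to 19.3 against 31.1 to 36.0 TPM. No marker in these lists was at 0 in every library. The part of these cells in the changes below was not tested, and in these bulk samples fewer cells of a type cannot be told apart from less RNA per cell.

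Among the inducible catalytic subunits, Psmb8 and Psmb9 were higher in transgenic macrophages, whereas Psmb10 was not called. Psmb8 encodes the chymotrypsin-like subunit LMP7. It read 159, 158 and 157 TPM in wild type and 187, 185 and 182 TPM in transgenic libraries. The 3 transgenic values all exceeded the wild type ones, by a margin wider than the spread within either group (158 ± 0.884 against 185 ± 2.80, SD, n = 3). The log2 fold change was 0.22 (SE 0.022, 95% interval 0.17 to 0.27, limma adjusted p = 0.00033), a gain of 16.7% in mean TPM.

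Psmb9 encodes LMP2, the inducible counterpart of the caspase-like subunit. It read 76.2, 84.2 and 85.6 TPM in wild type and 111, 97.2 and 101 TPM in transgenic libraries. Wild type replicate 1 was the lowest and transgenic replicate 1 the highest, and the groups did not overlap. The means were 82.0 ± 5.06 and 103 ± 7.26 TPM (SD, n = 3), a gain of 26.0%, with a log2 fold change of 0.33 (SE 0.060, limma adjusted p = 0.0067).

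Psmb10 encodes MECL-1, the inducible counterpart of the trypsin-like subunit. It read 103, 98.1 and 101 TPM in wild type and 101, 95.8 and 96.2 TPM in transgenic libraries, so the groups overlapped. The log2 difference was -0.044 (95% interval -0.12 to 0.030, limma adjusted p = 0.37).

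The PA28 genes split in the same manner. Psme1, the PA28-alpha gene and the most abundant of the 50 rows (mean over all libraries 196 TPM), read 175, 183 and 180 TPM in wild type and 215, 220 and 206 TPM in transgenic libraries. Every transgenic library lay above every wild type one. The means were 179 ± 4.17 and 214 ± 6.71 TPM (SD, n = 3), a gain of 19.4%, with a log2 fold change of 0.25 (SE 0.030, limma adjusted p = 0.00084).

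Psme2, the PA28-beta gene, read 129, 140 and 148 TPM in wild type and 125, 136 and 138 TPM in transgenic libraries. These overlapped, and the log2 difference of -0.064 was not called (95% interval -0.19 to 0.066, limma adjusted p = 0.46). Psme2 has a near-identical copy in Psme2b, so reads of this pair may have been split between them. Psme1 shares 4 bases with Emc9 on the opposite strand, a gene at 10.4 TPM in wild type.

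**Figure D1:**
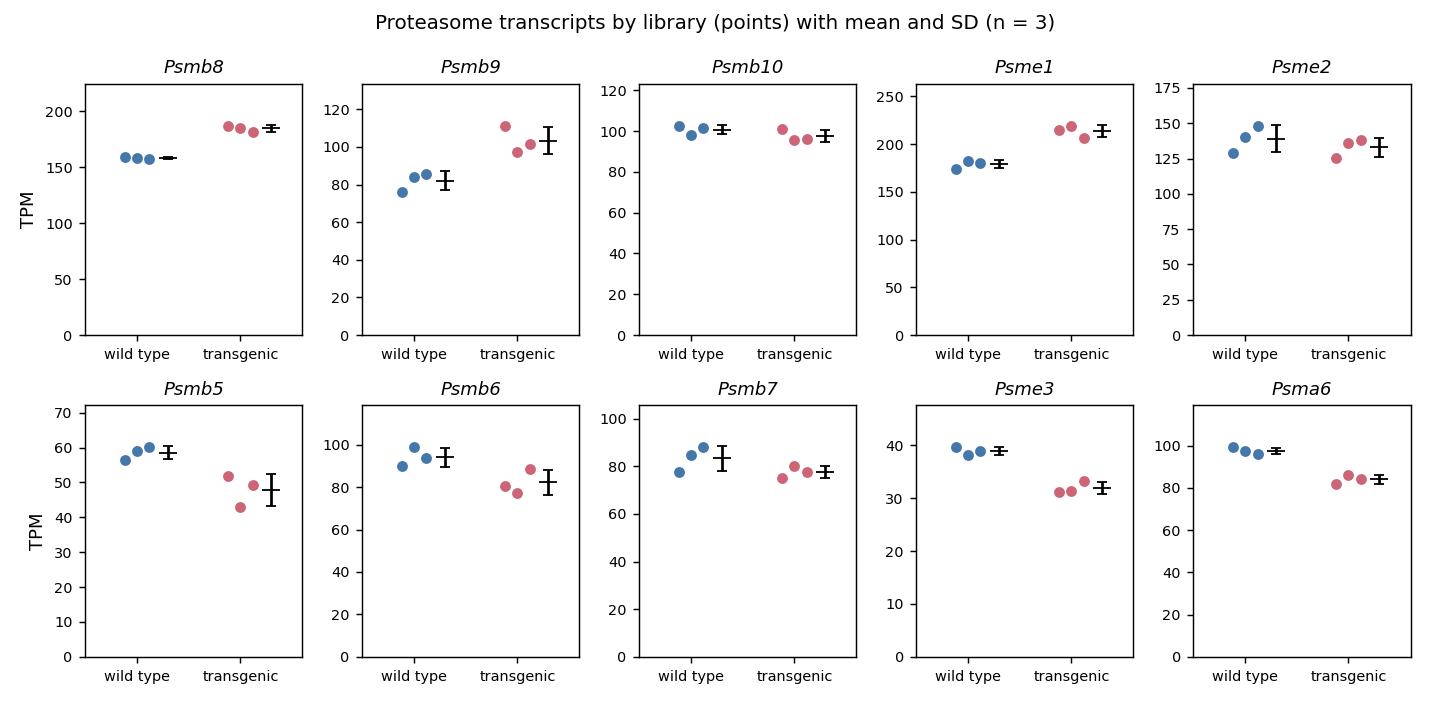
TPM in each library (points) for the 5 inducible genes and the constitutive genes Psmb5, Psmb6, Psmb7, Psme3 and Psma6, with black bars for mean and SD (n = 3). Psmb8, Psmb9 and Psme1 lie higher in the 3 transgenic libraries, Psmb10 and Psme2 overlap, and Psmb5, Psmb6, Psme3 and Psma6 lie lower.

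Of the 3 constitutive catalytic genes, Psmb5 and Psmb6 were lower in transgenic samples and Psmb7 was not called. Psmb5, the chymotrypsin-like subunit that Psmb8 replaces, read 56.5, 59.1 and 60.1 TPM in wild type and 51.8, 42.8 and 49.2 TPM in transgenic libraries. Transgenic replicate 2 was the lowest, and the groups did not overlap. Mean TPM was 58.6 ± 1.84 against 47.9 ± 4.61 (SD, n = 3), with a log2 fold change of -0.29 (SE 0.067, limma adjusted p = 0.019). The call was lost without wild type replicate 2 (limma adjusted p = 0.058) or wild type replicate 3 (adjusted p = 0.061). The microRNA gene Mir686 overlaps Psmb5 by 109 bases on the same strand, so reads there may belong to either.

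Psmb6, the caspase-like subunit that Psmb9 replaces, read 89.9, 98.8 and 93.7 TPM in wild type and 80.7, 77.2 and 88.6 TPM in transgenic libraries. The nearest values of the groups were 88.6 and 89.9 TPM. The log2 fold change was -0.19 (SE 0.056, limma adjusted p = 0.041). The call was lost in 8 of 13 alternatives, among them upper-quartile scaling (limma adjusted p = 0.070), median-of-ratios scaling (0.064), no low-value filter (0.080) and leaving out wild type replicate 2 (0.12), wild type replicate 3 (0.092), transgenic replicate 1 (0.11) or transgenic replicate 2 (0.12).

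Psmb7, the trypsin-like subunit that Psmb10 replaces, read 77.8, 84.6 and 88.0 TPM in wild type and 75.1, 80.2 and 77.5 TPM in transgenic libraries. The groups overlapped and the log2 difference of -0.10 (SE 0.049) was not called (limma adjusted p = 0.18). Without wild type replicate 1 it was -0.15 and passed (limma adjusted p = 0.044).

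Ratios taken within a library do not depend on how libraries are scaled to each other. Psmb8 over Psmb5 was 2.82, 2.68 and 2.62 in the wild type libraries and 3.62, 4.32 and 3.70 in the transgenic ones. All 3 transgenic ratios exceeded all wild type ones, with a geometric mean 43.0% higher. Psmb9 over Psmb6 was 0.848, 0.853 and 0.913 in wild type, with Psmb6 the more abundant, and 1.38, 1.26 and 1.14 in transgenic libraries, with Psmb9 the more abundant. The geometric mean was 44.4% higher. Psmb10 over Psmb7 was 1.32, 1.16 and 1.15 against 1.34, 1.19 and 1.24, and overlapped.

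The log2 differences of these ratios were 0.52, 0.53 and 0.058. A two-sided exact permutation test gave p = 0.10, 0.10 and 0.50 (0.15, 0.15 and 0.50 adjusted over the 3 pairs). With 3 samples against 3, 0.10 is the smallest p possible, so no ratio could pass 0.05. The inducible genes made up 58.4% to 60.1% of the summed TPM of the 6 catalytic genes in wild type and 63.8% to 65.8% in transgenic libraries.

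**Figure D2:**
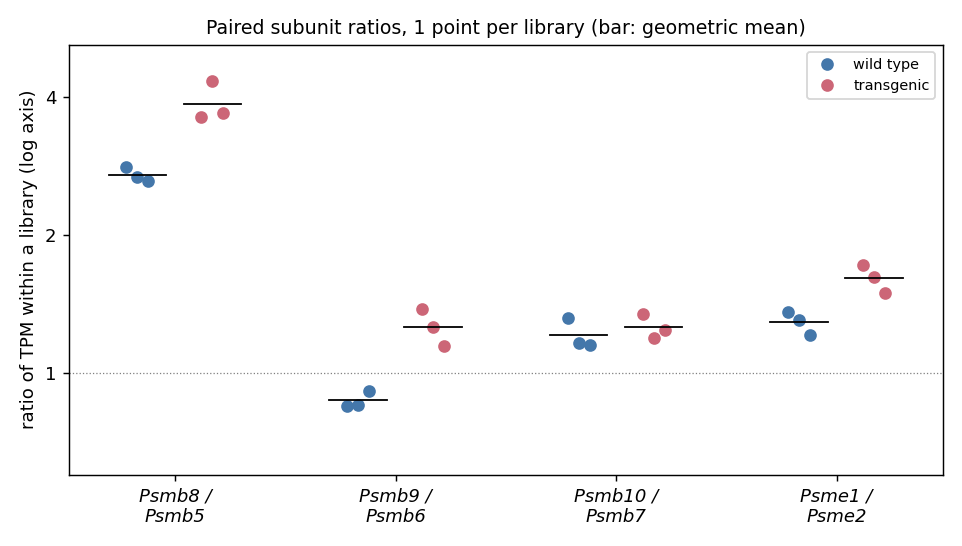
Ratio of TPM within each library (points, log axis) for the 3 catalytic pairs and for Psme1 over Psme2, with short bars for group geometric means. Psmb9 over Psmb6 lies below 1 in wild type libraries and above 1 in transgenic ones, and Psmb10 over Psmb7 overlaps.

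Further ratios were chosen after the values were seen. Psmb8 over Psmb10 was 1.55, 1.61 and 1.55 in the wild type libraries and 1.86, 1.93 and 1.89 in the transgenic ones. Psmb9 over Psmb10 was 0.742, 0.858 and 0.845 against 1.10, 1.02 and 1.05. Psme1 over Psme2 was 1.36, 1.30 and 1.21 against 1.72, 1.62 and 1.50. In these 3 ratios the groups did not overlap. The exact permutation p was 0.10 in each, the smallest possible.

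Psme3, which encodes PA28-gamma, a nuclear activator that is not induced by interferon-gamma, was lower in transgenic samples. It read 39.6, 38.2 and 39.0 TPM in wild type and 31.1, 31.3 and 33.3 TPM in transgenic libraries. The groups did not overlap, and the difference exceeded the spread within either (38.9 ± 0.711 against 31.9 ± 1.20 TPM, SD, n = 3).

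The Psme3 log2 fold change was -0.28 (SE 0.042, limma adjusted p = 0.0026), a fall of 18.04% in mean TPM. Psme1 over Psme3, also chosen after the values were seen, was 4.41, 4.79 and 4.62 in the wild type libraries and 6.92, 7.02 and 6.20 in the transgenic ones. Psme4, the gene of the activator PA200, read 16.5, 15.9 and 16.2 TPM against 15.7, 16.1 and 16.7 TPM. Its groups overlapped around the same mean of 16.2 TPM (limma adjusted p = 0.97).

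The alpha ring, which gates entry to the core, contributed 1 called gene of 7. Psma6 read 99.2, 97.2 and 96.0 TPM in wild type and 82.0, 86.3 and 84.0 TPM in transgenic libraries. The groups were well apart (97.5 ± 1.62 against 84.1 ± 2.14 TPM, SD, n = 3), and the log2 fold change was -0.21 (SE 0.030, limma adjusted p = 0.0022). Psma7, the most abundant of the ring, read 103, 102 and 111 TPM against 102, 110 and 103 TPM, which overlapped. Psma3, the least abundant, read 19.5, 18.3 and 19.1 TPM against 18.1, 17.5 and 18.5 TPM, which also overlapped. Psma4 shares 96 bases with AY074887 on the opposite strand.

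None of the 4 non-catalytic beta genes was called with all libraries. Psmb4 was called lower without wild type replicate 1 (log2 fold change -0.17, limma adjusted p = 0.020), as was Psmb2 without wild type replicate 2 (-0.20 against -0.12 with all libraries, limma adjusted p = 0.0097). Psmb4, the most abundant, read 143, 161 and 158 TPM in wild type and 147, 143 and 137 TPM in transgenic libraries. Psmb3, the least abundant, read 64.9, 69.2 and 69.9 TPM against 54.0, 66.2 and 68.5 TPM. Psmb4 and Psmb3 overlapped between groups, with log2 differences of -0.11 (limma adjusted p = 0.14) and -0.12 (0.36). The Psmb3 difference ranged from -0.18 to -0.013 with 1 library left out.

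The 19S regulatory particle has a base with a ring of ATPases, encoded by Psmc1 to Psmc6, that unfolds substrates and threads them into the core. Psmc3 was the called member of these 6. It read 82.2, 80.0 and 83.6 TPM in wild type and 72.0, 76.1 and 76.2 TPM in transgenic libraries, with no overlap. The log2 fold change was -0.13 (SE 0.035, limma adjusted p = 0.031). Psmc1 (-0.14, limma adjusted p = 0.056) and Psmc4 (-0.11, 0.087) also lay lower without overlap, a pattern of 22.3% of all tested genes. Psmc1 was called lower at a filter of 5 TPM (limma adjusted p = 0.045) and without transgenic replicate 2 (0.028). Psmc4 was called lower without wild type replicate 2 (limma adjusted p = 0.045).

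The Psmc3 call was lost in 8 of 13 alternatives. Among these were both other scalings (limma adjusted p = 0.068 and 0.052) and leaving out any library but wild type replicate 2 (limma adjusted p from 0.056 to 0.093). Psmc6, the least abundant ATPase gene, read 34.0, 39.8 and 38.2 TPM against 39.2, 41.0 and 35.9 TPM and overlapped (log2 difference 0.050, limma adjusted p = 0.66).

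The other base subunits bind ubiquitin and its carriers. Psmd4, the ubiquitin receptor known as S5a, read 77.3, 69.6 and 83.2 TPM in wild type and 67.6, 66.5 and 69.5 TPM in transgenic libraries. Psmd1, a scaffold subunit, read 39.0, 42.3 and 36.2 TPM against 35.6, 36.0 and 34.4 TPM. With Psmd2, all 3 of these genes had every transgenic library below every wild type one, a pattern of 22.3% of all tested genes, and none passed the test (limma adjusted p from 0.084 to 0.16). Psmd1 spans the opposite-strand gene Htr2b, which read 0.219 TPM in wild type.

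The lid removes ubiquitin chains, through the deubiquitinase encoded by Psmd14. Of its 8 genes, Psmd3, a structural subunit, was called. It read 66.7, 65.1 and 62.1 TPM in wild type and 55.5, 54.7 and 59.5 TPM in transgenic libraries, without overlap. The log2 fold change was -0.19 (SE 0.044, limma adjusted p = 0.018). The call was lost without wild type replicate 1 (limma adjusted p = 0.058), wild type replicate 2 (0.055), transgenic replicate 1 (0.057) or transgenic replicate 2 (0.064).

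Psmd7, the inactive partner of the lid deubiquitinase, lay just outside the threshold. It read 42.5, 40.6 and 43.4 TPM against 35.1, 35.4 and 40.1 TPM, with a log2 difference of -0.19 (SE 0.058, limma adjusted p = 0.0504). It was called lower in 4 of 13 alternatives: a filter of 5 TPM (limma adjusted p = 0.038), limma-voom (0.022), the replicate block (0.038) and without transgenic replicate 3 (0.014). Psmd13 had the other direction, at 51.6, 49.1 and 46.0 TPM against 55.4, 51.7 and 52.8 TPM (log2 difference 0.12, limma adjusted p = 0.12). The most abundant lid gene, Psmd8, read 76.0, 78.5 and 81.8 TPM against 68.9, 78.2 and 73.2 TPM. The least abundant, Psmd11, read 23.7, 28.0 and 28.8 TPM against 23.6, 24.7 and 25.0 TPM. Both of these overlapped between groups. Psmd11 was called lower without wild type replicate 1 (log2 fold change -0.21, limma adjusted p = 0.032).

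**Figure D3:**
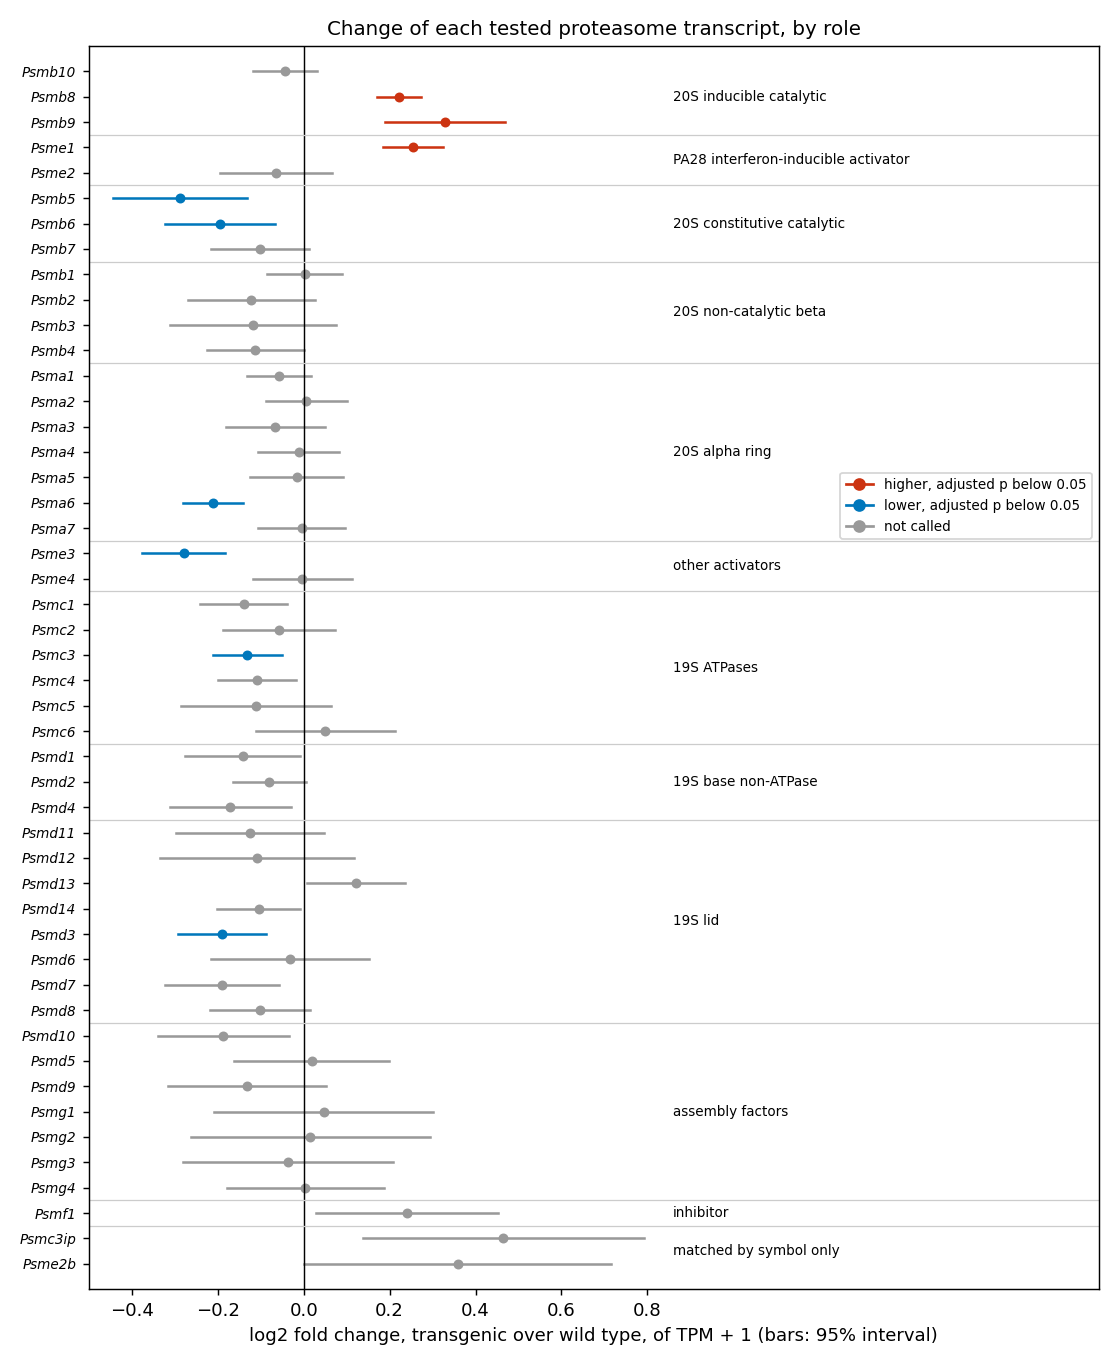
Log2 fold change of each of the 48 tested rows, grouped by role, as limma estimates (points) with unadjusted 95% intervals (bars). The 3 genes called higher are Psmb8, Psmb9 and Psme1, the 6 called lower are all constitutive genes, and most other constitutive genes lie left of 0.

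Across the 33 constitutive subunits and activators, all 6 called genes were lower, 18.2% of the 33, where 13.2% of all tested genes were called lower. By sign alone, 29 of 33 (87.9%) had a negative log2 difference, with a median of -0.11, while 52.6% of all tested genes were negative, with a median of -0.012. Under upper-quartile scaling 25 of the 33 were negative (47.6% of all tested genes) and under median-of-ratios scaling also 25 (48.8%), the sign of Psma4, Psma5, Psma7 and Psme4 being turned by both.

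In 14 of the 33 genes (42.4%) every transgenic library lay below every wild type library, where 22.3% of all tested genes had that pattern. In 1 of the 33 (Psmd13) every transgenic library lay above, where 17.1% of all tested genes did. In either direction, groups did not overlap for 15 of the 33, against 39.3% of all tested genes. As subunits of 1 complex measured in the same 6 libraries, these genes are not independent, and no test was made of the list. The neutrophil and epithelial marker sums given above were also lower in the transgenic libraries, and their part in these differences was not tested. Summed TPM of the constitutive core genes ran from 1094 to 1132 in wild type and from 1032 to 1053 in transgenic libraries. The sums for the regulatory particle were 900 to 939 and 851 to 868 TPM.

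With the inducible genes included, all 50 rows took 0.514% to 0.535% of the deposited TPM in wild type libraries. The transgenic libraries fell within or just below that range, at 0.513% to 0.517%.

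**Figure D4:**
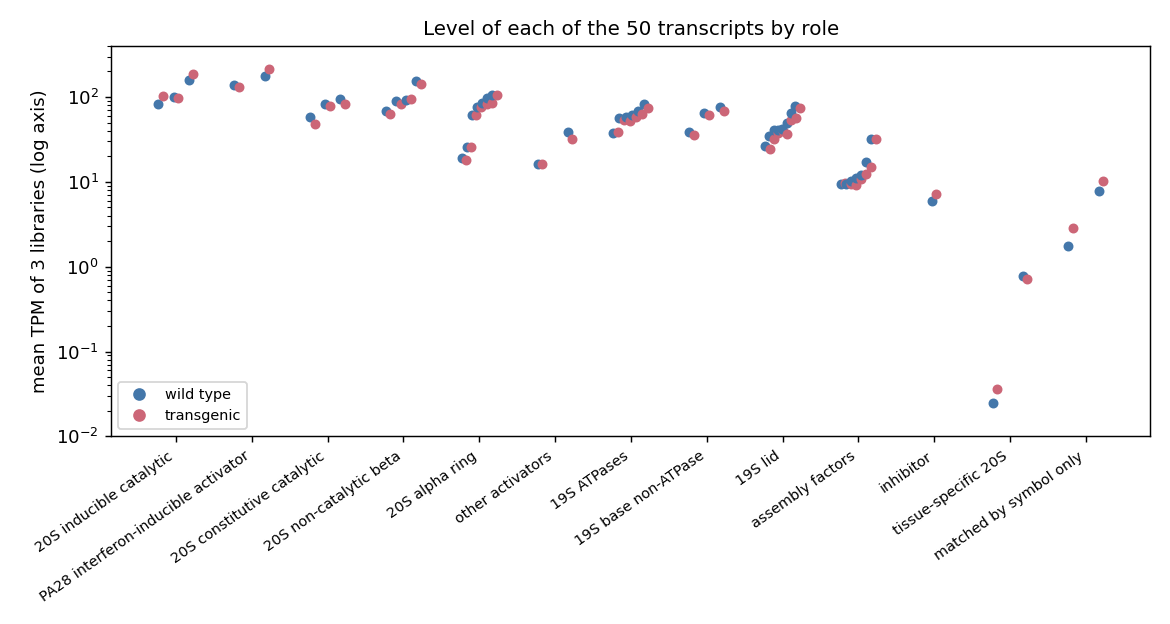
Mean TPM of the 3 libraries of each genotype (points, log axis) for all 50 rows, by role. Psme1 is the highest row at 179 and 214 TPM, assembly factors lie below most subunits, and the tissue-specific Psmb11 and Psma8 lie below 1 TPM.

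Assembly factors, chaperones that build the core and base and leave the finished particle, were less abundant than most subunits (9.42 to 31.7 TPM over all libraries, against 16.2 to 148 TPM for constitutive subunits and activators), and none of the 7 was called. The highest, Psmg4, read 27.6, 33.1 and 34.3 TPM in wild type and 32.9, 31.4 and 30.6 TPM in transgenic libraries. The lowest, Psmd5, read 9.17, 9.78 and 9.07 TPM against 8.59, 9.62 and 10.3 TPM. Both overlapped. Psmf1, the gene of the inhibitor PI31, read 6.71, 5.88 and 5.32 TPM in wild type and 7.55, 6.87 and 7.23 TPM in transgenic libraries. Its groups did not overlap, but the log2 difference of 0.24 (SE 0.091) did not pass (limma adjusted p = 0.10).

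The tissue-specific core subunits were near the limit of detection. Psmb11, the thymus-specific catalytic subunit, had 0, 4 and 0 reads in wild type and 0, 2 and 4 reads in transgenic libraries. A count of 0 allows up to 3 reads, or 0.053 to 0.058 TPM for this gene, counting error only. Psma8, the testis-specific alpha subunit, had 12, 12 and 22 against 9, 14 and 21 reads. Neither reached the filter, and no difference was detectable at this depth.

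The rows that share only the symbol pattern were both uncalled. Psmc3ip read 1.52, 1.87 and 1.91 TPM against 2.38, 2.62 and 3.52 TPM (log2 difference 0.46, SE 0.14, limma adjusted p = 0.052), from 18 to 45 reads per library. Psme2b read 6.47, 9.18 and 7.77 TPM against 12.1, 8.16 and 10.7 TPM (limma adjusted p = 0.14). Its 261-base overlap with 9930111J21Rik1 and its likeness to Psme2 make its reads uncertain.

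The authors' deposited table, which gives its own log2 values and tests, called the same 3 of the 50 genes higher, at log2 changes of 0.17 for Psmb8, 0.34 for Psmb9 and 0.20 for Psme1. It called 11.2% of the genes tested in both tables higher. The authors' deposited table called 16 lower (32.0% of the 50), against 21.4% of the 12097 genes tested here that it also tested. All 6 genes lower in the limma fit were among them. The other 10 lower genes in the authors' deposited table were Psma1, Psmb4, Psmc1, Psmc4, Psmd1, Psmd2, Psmd4, Psmd7, Psmd8 and Psmd10.

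Genes that act with the proteasome were counted over a list of partners, shuttles, ubiquitin genes and regulators. Of 27 tested, 3 were higher and 10 lower, where 8.71% and 13.2% of all tested genes were, with a median log2 difference of -0.076. Pomp, the chaperone that completes core assembly, read 165, 171 and 174 TPM in wild type and 147, 156 and 160 TPM in transgenic libraries, without overlap. Its log2 fold change was -0.14 (SE 0.036, limma adjusted p = 0.032), a call lost in 7 of 13 alternatives. Nfe2l1, the transcription factor that induces proteasome genes when proteasome activity falls short, read 36.9, 35.9 and 39.7 TPM against 35.8, 36.7 and 37.5 TPM and was not called (limma adjusted p = 0.71).

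Others in that list fell, among them Uchl5, a proteasome-bound deubiquitinase (log2 fold change -0.29), Rad23b, a ubiquitin shuttle (-0.23), and Akirin2, which carries proteasomes into the nucleus (-0.22). Those that rose included Ubb, a polyubiquitin gene (0.097), and Ddi2, the protease that activates the Nfe2l1 product (0.14).

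Downstream of the proteasome, peptides are carried into the endoplasmic reticulum and loaded on class I molecules. Of 22 tested genes for this loading and its transcription, 9 were higher and 4 lower, where 8.71% and 13.2% of all tested genes were. The median log2 difference was 0.095. The 9 include Ifng, which passed the low-value filter only through its transgenic mean. Tap1, which shares its upstream interval with Psmb9, read 47.6, 50.3 and 49.0 TPM in wild type and 71.0, 71.6 and 69.5 TPM in transgenic libraries. The groups were far apart, and the log2 fold change was 0.52 (SE 0.034, limma adjusted p = 4.2e-05), against 0.33 for Psmb9. Tap2, beyond Psmb8 on the same chromosome, read 62.4, 61.2 and 65.4 TPM against 75.5, 74.2 and 77.2 TPM (log2 fold change 0.26, limma adjusted p = 0.0017).

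Among the regulators in that list, Nlrc5 and Irf1 were called higher, Socs1 was called lower, and several were not called. Nlrc5, the class I transactivator, read 12.0, 12.4 and 12.1 TPM in wild type and 19.04, 18.5 and 18.8 TPM in transgenic libraries (log2 fold change 0.58). Irf1, a transcription factor induced by interferon-gamma, read 110, 107 and 105 TPM against 146, 149 and 152 TPM (0.47). Neither gene overlapped between groups, and both passed the test.

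Ifng, the interferon-gamma gene, was low, at 0.270, 0.195 and 0.331 TPM in wild type and 1.77, 1.22 and 1.19 TPM in transgenic libraries. These values rest on 3 to 5 and 18 to 28 reads (log2 fold change 0.91 on the log2(TPM + 1) scale). Ifng entered the fit only through its transgenic mean, so its call is not used as support for a difference. Ifng is chiefly a product of T and NK cells. The marker sums of T, NK and innate lymphoid cells, given above, were also higher in transgenic libraries (7 of 15 tested members called higher). Whether those cells bear on the Ifng values was not tested. The 4 lower genes were Socs1, a feedback inhibitor of interferon signalling (log2 fold change -0.52), and the chaperones Calr, Canx and Pdia3.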

How the data were processed

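Per the submitters' processing notes, bcl2fastq, STAR, HOMER 4.11.1 and DESeq2 were used with build mm10. How each tool was set is not stated in those notes. The first table deposited by the authors gives, per the file headers, TPM for each gene over its exon length, 1 RefSeq transcript a gene. A second table deposited by the authors holds regularised log2 values, log2 fold changes and p-values; its fold changes are transgenic minus wild type by the sign of the log2 values in 100% of 5099 called rows.

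Members, gene lists and marker lists were chosen with earlier results of these data known. Named genes were the 5 inducible genes, their counterparts, every called member, the highest and lowest of each role and listed regulators. Psmd7, Psmd13, Psma4, Psmc1, Psmc4, Psmd10, Psmc3ip, Psme2b, Psmb11 and Psma8 were added after values were seen. Some listed genes are not reported here. Groups came from sample titles, since the genotype field of transgenic replicates 2 and 3 ends the factor's name in another digit.

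TPM was tested as log2(TPM + 1) with limma-trend (limma 3.58.1, R 4.3.3), genotype alone, all 6 libraries, a group mean of 1 TPM or more in either genotype, Benjamini-Hochberg adjustment over 12633 genes. Fold changes are on that log2 scale, which understates the change of low genes. TPM times exon length gave whole reads (tolerance 0.1 reads) for over 99.9% of low values, which were used for depth and for limma-voom. Deposited columns sum to 543612 to 545319 TPM. The fit was also run on simulated reads. Far fewer genes were changed there than were called here, so that run gives no rate of false calls for these data. Whether the libraries kept strand is not stated, so reads of overlapping genes on opposite strands may not be told apart. Same-numbered libraries did not pair. The alternatives covered pseudocount, filter, scaling, limma-voom, a replicate block, a stricter threshold and leaving out each library.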

Additional observations from a re-analysis of the deposited data

How the results depend on the processing

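Psmb8, Psmb9 and Psme1 kept their direction and call in all 13 alternatives run for single genes, as did Psma6 and Psme3, and Psmb10 and Psme2 were called in none. Members called lower numbered 6 and ranged from 4 with either other scaling to 9 with limma-voom on recovered reads (8 at a filter of 5 TPM), from 3 to 7 when 1 library was left out (3 without transgenic replicate 1), and 2 at an adjusted p below 0.01. Members called higher numbered 3 or 4, the added genes being Psmc3ip with either scaling and Psmf1 with limma-voom or without wild type replicate 1. Over all genes, calls higher fell from 1100 to 704 without transgenic replicate 2 and 721 without transgenic replicate 3 (704 to 883 over all left-out libraries) and calls lower from 1666 to 1231 to 1373, which were fits on fewer samples. At an adjusted p below 0.01 there were 514 higher and 902 lower. With the replicate block, 3 members were higher and 6 lower, Psmb6 (limma adjusted p = 0.059) and Psmc3 (0.054) being replaced by Psmd4 (0.048) and Psmd7 (0.038); same-numbered libraries correlated at -0.013, -0.043 and 0.032, so the numbers showed no pairing.

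The ratio Psmb8 over Psmb5 differed by 0.44 to 0.56 (log2) with 1 library left out, Psmb9 over Psmb6 by 0.46 to 0.60 and Psmb10 over Psmb7 by 0.011 to 0.12. From the log2 values of the authors' deposited table these differences were 0.35, 0.44 and 0.0089. Signs turned only among genes with no call. With upper-quartile and median-of-ratios scaling, the log2 difference became 0.014 and 0.0069 for Psma4, 0.0092 and 0.0023 for Psma5, 0.021 and 0.014 for Psma7, and 0.021 and 0.015 for Psme4 (0.0026 with limma-voom). With 1 library left out, the log2 difference ranged from -0.058 to 0.011 for Nfe2l1, -0.030 to 0.031 for Psma2, -0.043 to 0.014 for Psma4, -0.053 to 0.0031 for Psma5, -0.037 to 0.035 for Psma7, -0.036 to 0.032 for Psmb1, -0.014 to 0.10 for Psmc6, -0.035 to 0.082 for Psmd5, -0.11 to 0.025 for Psmd6, -0.025 to 0.017 for Psme4, -0.073 to 0.11 for Psmg1, -0.10 to 0.091 for Psmg2, -0.12 to 0.069 for Psmg3 and -0.089 to 0.063 for Psmg4. The cause of these changes was not tested. Depth limits Psma8, Psmb11, Psmc3ip and Ifng, each with under 50 reads in every library.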
